A study of Homo sapiens with 6 samples.

Results

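The 10 genes described here carry the signal of oncostatin M from the keratinocyte surface to the nucleus: the receptor chains OSMR, LIFR and IL6ST (gp130), the Janus kinases JAK1, JAK2 and TYK2, the transcription factor STAT3, and 3 of its known targets, SOCS3, PIM1 and BCL3. They were taken by name from a table with 58302 gene entries, and all 10 were among the 15063 genes with enough counts to be tested. The cells were Ker-CT, human keratinocytes made immortal by added telomerase and CDK4. By their labels, 3 libraries came from cells given siRNA against KMT2C (siKMT2C) and 3 from cells given a negative-control siRNA (siNC). KMT2C is a methyltransferase for lysine 4 of histone H3. Both groups were exposed for 24 h to M5, a mixture of 5 cytokines at 10 ng/ml apiece: oncostatin M together with TNF-α, IL-22, IL-1α and IL-17A. Oncostatin M itself was therefore present in every culture, no culture without cytokines was analysed here, and the comparison asks how depletion of KMT2C altered expression in stimulated cells. Ker-CT is a single line, and nothing in the labels says that replicates were separate cultures, so p-values measure only the spread between these libraries, which may be technical.

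Oncostatin M binds gp130 and then recruits either OSMR or LIFR, which gives 2 alternative receptor complexes. Janus kinases held on the receptor tails phosphorylate the receptors and STAT3, which pairs up, enters the nucleus and activates its targets. SOCS3 is a target that binds gp130 and JAKs and shuts the signal down. In keratinocytes the pathway is known for repressing differentiation genes and for raising inflammatory ones, and it is active in psoriatic skin. RNA levels were measured here, not the phosphorylation through which most of this signal passes.

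KMT2C was lower in each siKMT2C library, at 32.0, 30.8 and 27.3 CPM, than in the siNC libraries, at 87.9, 82.0 and 72.6 CPM. CPM are read counts rescaled to a common total, with allowance for library size and composition by edgeR's TMM factors. The fall in KMT2C was called, with a log2 fold change of -1.43 (SE 0.14, edgeR adjusted p = 0.00786). Leaving out siKMT2C replicate 1, siKMT2C replicate 2 or siNC replicate 2 ended that call, with adjusted p of 0.0634, 0.0507 and 0.0593. Libraries held 14409277 to 17539519 counts. All 14 keratinocyte markers examined were present, with a summed level of 18645 to 25481 CPM in siKMT2C and 18866 to 28403 CPM in siNC. Of the 27 markers of fibroblasts, melanocytes, immune cells and endothelium, 6 reached a mean of 1 CPM (COL1A1, COL1A2, DCN, MLANA, PMEL and CD68) and 10 had no counts, among them PTPRC, CD3E, SOX10 and PECAM1. The fibroblast markers summed to 13.7 to 17.7 CPM in siKMT2C and 21.1 to 31.5 CPM in siNC. The melanocyte markers summed to 2.03 to 3.06 and 2.31 to 3.38 CPM, the immune markers to 13 to 14.5 and 9.67 to 14.5 CPM, mostly from CD68, and the endothelial markers to at most 0.0642 and 0.208 CPM. Their part in the results was not tested. Whether a lower level means fewer cells expressing a gene or less RNA per cell cannot be told apart in these bulk libraries.

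None of the 10 genes was called at an edgeR adjusted p under 0.05, against 1.50% of all genes tested, and DESeq2 and limma-voom called 0 as well. At an unadjusted p under 0.05, OSMR and SOCS3 were lower and STAT3 was higher, which is 3 of 10 beside 16.9% of all genes. The groups did not overlap in OSMR and STAT3, 2 of 10 beside 24.1% of all genes. Fold changes on the log2 scale ran from -0.47 to 0.40, with a median of -0.24 for the 10 genes and 0.00 for all genes tested. Of the 10 values 8 were negative, as were 50.3% of all genes. In simulated data the same edgeR test recovered 10.8% of 1.5-fold and 47.8% of 2-fold changes. Real changes of the size seen here could therefore go uncalled.

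The sequences that follow show where 2 short motifs occur in or near these genes. GTATAAA is a 7-base motif that an earlier analysis of these same libraries found often in the 3′ UTRs of genes lower in siKMT2C. Searched on the sense strand of the longest coding transcript (GENCODE 29), it occurred in 17.2% of 12258 tested genes whose 3′ UTR had 50 bases or more. Its share was 40.9% in the 115 such genes called lower and 13.5% in the 96 called higher. The motif was taken from these same libraries, so these shares are a description and no independent support. Lengths of the 3′ UTRs were not matched between these groups. Among the 10 genes only IL6ST held it. It was also looked up in KMT2C and in the listed pathway genes named for their p-values, but not in every gene mentioned here. Of those searched STAT5B, SH2B3 and KMT2C itself held it. No siRNA sequence was at hand, and the part of this motif in any result was not tested. The windows below are written 5′ to 3′ on the gene's strand with the motif in capitals.
IL6ST: gttgaagcctGTATAAAacatggtaca
STAT5B: tttgataaaaGTATAAAacaaaacaaa
SH2B3: gctttatctgGTATAAAtcttctgcct
KMT2C: aaaaaatacaGTATAAAaatagttatt
On GRCh38 these lie at chr5:55938906-55938932 (minus strand), chr17:42200463-42200489 (minus), chr12:111451154-111451180 (plus) and chr7:152136025-152136051 (minus). KMT2C has 2 copies, of which the first is shown. OSMR, LIFR, the 3 JAKs, STAT3, SOCS3, PIM1 and BCL3 had none.

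The other motif is TTCNNNGAA, the palindromic letters that STAT dimers are known to bind. It was searched in RefSeq promoter windows (GRCh38.p14), which reach from 250 bases before to 50 after a start site, and reads the same on both strands. All 10 genes matched, with 18 windows among them. LIFR alone held the motif, in 2 of its windows, beside 9.38% of all 27305 gene symbols in the table. With the motif in capitals, these 2 sites read as follows.
LIFR distal site: ccattactagTTCCTTGAAccacaatcca
LIFR proximal site: gctttggagtTTCATCGAAaggtctttaa
They lie at chr5:38595552-38595580 and chr5:38557631-38557659 on the minus strand, centred 161 and 178 bases before their own start sites. Distal here means further upstream along the gene, not further from a start site. For the other 9 genes these letters were absent from these windows. The table's windows do not cover the gene starts that GENCODE 29 gives LIFR, SOCS3, PIM1 and BCL3, and the 2 windows of LIFR that hold the motif matched no GENCODE 29 transcript by their first transcribed bases. No binding was measured.

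**Figure D1:**
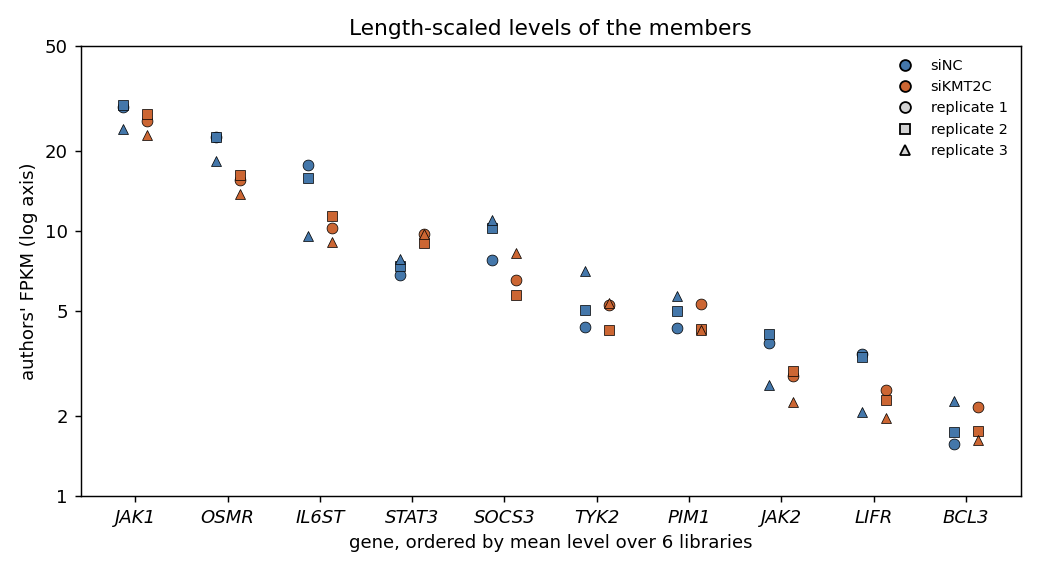
Length-scaled level (the authors' FPKM, log axis) of the 10 genes in each of 6 libraries, with siNC in blue, siKMT2C in orange and symbols for replicates. JAK1 stood highest in every library and BCL3 lowest on average, with mean levels of 26.7 and 1.86 FPKM.

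Levels between genes can be compared per length, for which the deposited FPKM values (fragments scaled to transcript length and library depth) were used. JAK1 was the most abundant at 26.7 ± 2.77 FPKM (SD over all 6 libraries), followed by OSMR at 18.2 ± 3.68 and IL6ST at 12.4 ± 3.60. STAT3 and SOCS3 came next at 8.44 ± 1.26 and 8.27 ± 2.05 FPKM. TYK2 and PIM1 were at 5.22 ± 1.02 and 4.8 ± 0.618 FPKM. JAK2 was at 3.10 ± 0.704, LIFR at 2.61 ± 0.636 and BCL3 at 1.86 ± 0.294 FPKM. By FPKM the order was the same in 6 of 6 libraries for JAK1 above OSMR, OSMR above IL6ST, SOCS3 above TYK2, PIM1 above JAK2 and JAK2 above LIFR. Such agreement cannot check the authors' lengths, which are the same in each library, and the FPKM order is meant here throughout. It was less firm elsewhere: STAT3 lay below IL6ST in 5 libraries, SOCS3 below STAT3 in 3, PIM1 below TYK2 in 4 and BCL3 below LIFR in 5. Among the FPKM of all genes tested, JAK1 stood at percentile 93, OSMR at 89.3 and IL6ST at 83.6, whereas JAK2 at 50 and LIFR at 45.6 were near the middle.

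**Figure D2:**
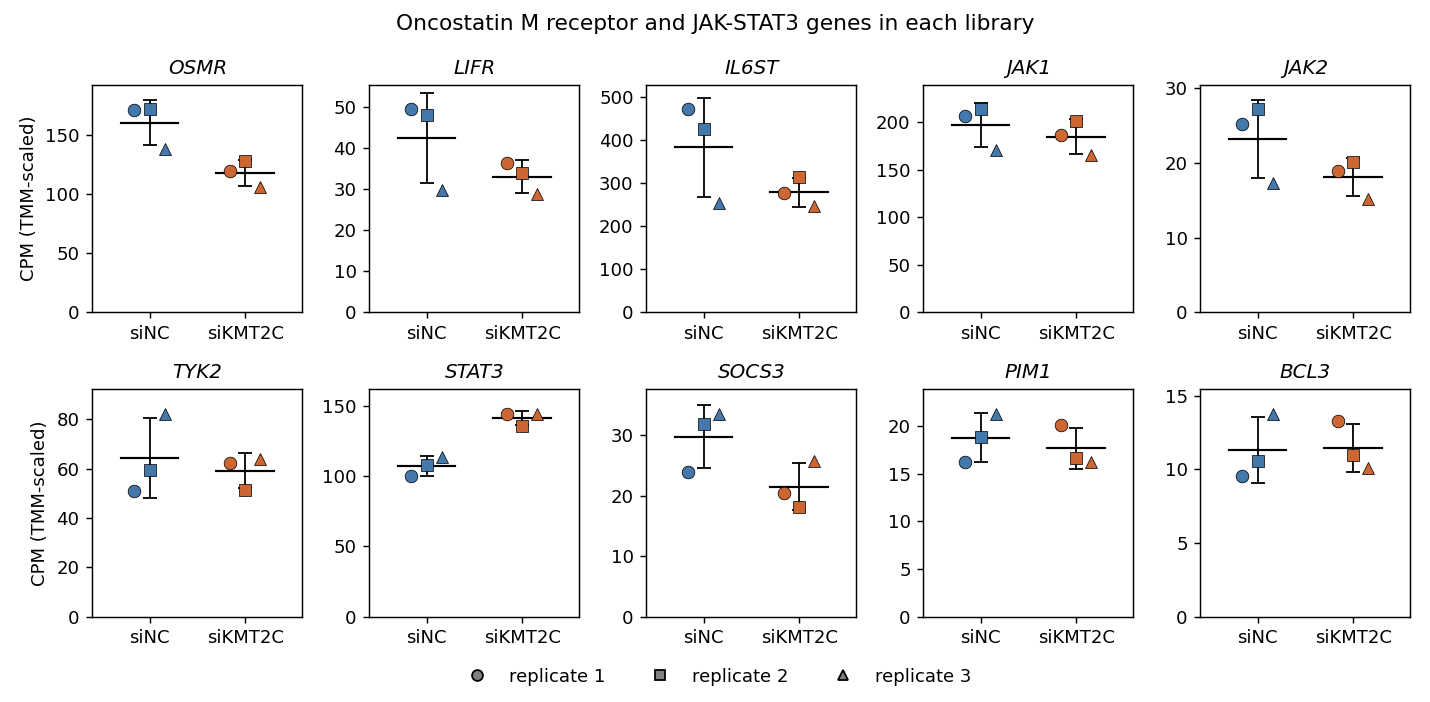
TMM-scaled CPM of each gene by library, with replicates as circles, squares and triangles, the mean as a line and 1 SD as bars (n = 3 per group). OSMR lies lower and STAT3 higher in siKMT2C with no overlap. In LIFR, IL6ST and JAK2 siNC replicate 3 falls to the siKMT2C range.

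The receptor chains were lower on average in siKMT2C, and none passed the test. OSMR (ENSG00000145623, chr5:38845858-38945596, GRCh38) encodes the chain that makes a receptor specific to oncostatin M. It was at 119.7, 127.6 and 105.9 CPM in siKMT2C replicates 1 to 3 and at 170.7, 171.7 and 138.5 CPM in siNC replicates 1 to 3. Every siKMT2C library lay below every siNC library. The log2 fold change was -0.44 (SE 0.14, n = 3 per group, edgeR adjusted p = 0.165), a level of 73.5% of siNC with an unadjusted 95% interval of 58.6% to 92.0%. The exact two-sided permutation p of OSMR was 0.1, below which a design of 3 against 3 cannot go. Without siNC replicate 3, a setting that called 4.04% of all genes, OSMR was called (-0.55, edgeR adjusted p = 0.0463). Over all alternatives its log2 fold change ran from -0.55 to -0.37 and its adjusted p from 0.0239 to 0.421. The exons of OSMR share 229 of 7174 exonic bases with RICTOR on the opposite strand, and strand use in counting was not given, so a small part of its reads is uncertain.

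IL6ST (ENSG00000134352, chr5:55935095-55994993) encodes gp130, the chain shared by the whole cytokine family. Its level was 278.0, 314.0 and 246.4 CPM in siKMT2C and 471.8, 425.8 and 253.7 CPM in siNC. Replicates 1 and 2 of siNC stood above all siKMT2C libraries, and siNC replicate 3 lay among them. IL6ST had a log2 fold change of -0.46 (SE 0.23, edgeR adjusted p = 0.364), or 72.8% of siNC (95% interval 50.6% to 104.8%). Without siNC replicate 3 it was -0.69 and called (edgeR adjusted p = 0.0333), and without the replicate-3 libraries of both groups -0.61 (adjusted p = 0.0369, with 4.29% of all genes called). Without siNC replicate 1 it was -0.28 (adjusted p = 0.594). Over all alternatives the adjusted p reached 0.626. Its 3′ UTR is the one that holds GTATAAA, in the window printed above.

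LIFR (ENSG00000113594, chr5:38474963-38608354), the other partner of gp130 for oncostatin M and also the receptor chain for LIF, showed the same arrangement at a lower level. It was at 36.4, 34.0 and 28.7 CPM in siKMT2C and 49.4, 48.0 and 29.7 CPM in siNC. Again only the third siNC library overlapped the siKMT2C range. LIFR had a log2 fold change of -0.36 (SE 0.21, edgeR adjusted p = 0.456), or 78.1% of siNC (95% interval 55.4% to 110.1%). It was -0.57 without siNC replicate 3 (adjusted p = 0.0729) and -0.20 after correction for GC content and length.

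No difference in the ratios between receptor chains was shown, by a test that cannot go below 0.1 here. The FPKM of OSMR was 6.21, 7.09 and 6.96 times that of LIFR in siKMT2C and 6.53, 6.75 and 8.81 times in siNC (difference of mean log2 ratios -0.11, exact two-sided permutation p = 0.6). It was 1.51, 1.43 and 1.51 times that of IL6ST in siKMT2C and 1.27, 1.42 and 1.92 times in siNC (difference -0.03, exact permutation p = 1). The size of these ratios depends on the authors' gene lengths, and by the longest transcripts IL6ST would stand above OSMR. Other lengths would rescale a ratio alike in every library and leave the differences between groups unchanged. After adjustment over these 2 ratios both exact permutation p were 1. The highest value of both ratios was in siNC replicate 3, and without it the differences were 0.02 (exact permutation p = 0.9) and 0.14 (exact permutation p = 0.1, the smallest that 3 against 2 libraries allow).

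Of the kinases, JAK1 (ENSG00000162434, chr1:64833229-64966504), the main kinase of gp130 signalling, had nearly equal levels. It was at 186.8, 201.6 and 165.2 CPM in siKMT2C and 206.7, 213.4 and 170.7 CPM in siNC. The ranges overlapped, with a log2 fold change of -0.09 (SE 0.14, edgeR adjusted p = 0.792) and a 95% interval from 75.0% to 117.1% of siNC. JAK2 (ENSG00000096968, chr9:4984390-5128183) was at 19, 20.2 and 15.2 CPM in siKMT2C and 25.2, 27.2 and 17.3 CPM in siNC. As with IL6ST and LIFR, siNC replicates 1 and 2 were above the siKMT2C libraries and replicate 3 was not (-0.36, SE 0.21, edgeR adjusted p = 0.442). TYK2 (ENSG00000105397, chr19:10350529-10380676) went the other way across replicates, at 62.3, 51.1 and 64.0 CPM in siKMT2C and 50.9, 59.5 and 82.3 CPM in siNC. Its highest level was in siNC replicate 3. The log2 fold change of TYK2 was -0.12 (SE 0.20, edgeR adjusted p = 0.819), and its sign turned without siNC replicate 3 (0.09).

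STAT3 (ENSG00000168610, chr17:42313324-42388568) stood apart from its receptors in direction. It was at 144.4, 135.7 and 144.9 CPM in siKMT2C and 100, 108.3 and 114.0 CPM in siNC. All siKMT2C libraries were above all siNC libraries, and the groups were each narrow, at 141.7 ± 5.15 and 107.4 ± 7.06 CPM (SD, n = 3). STAT3 had a log2 fold change of 0.40 (SE 0.12, edgeR adjusted p = 0.142, exact permutation p = 0.1), or 131.9% of siNC (95% interval 109.3% to 159.1%). STAT3 was called after correction for GC content and length (0.48, edgeR adjusted p = 0.00785), a setting in which 9.11% of all genes were called, and over all alternatives its log2 fold change lay between 0.35 and 0.48. STAT3 is also a target of its own protein.

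The 3 targets in the set had log2 fold changes of -0.47, -0.09 and 0.02, and none was called. SOCS3 (ENSG00000184557, chr17:78356778-78360077), the feedback inhibitor, was at 20.4, 18.2 and 25.8 CPM in siKMT2C and 23.9, 31.8 and 33.6 CPM in siNC. Replicate 3 of siKMT2C lay above replicate 1 of siNC, and otherwise siKMT2C was the lower group. On the log2 scale SOCS3 differed by -0.47 (SE 0.20, edgeR adjusted p = 0.276), or 72.2% of siNC (95% interval 52.8% to 98.6%), and it lay between -0.62 and -0.36 over all alternatives, none of which called it.

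PIM1 (ENSG00000137193, chr6:37170203-37175426) encodes a serine/threonine kinase that promotes survival, and BCL3 (ENSG00000069399, chr19:44747705-44760044) an atypical IκB protein that binds NF-κB subunits. PIM1 was at 20.1, 16.6 and 16.2 CPM in siKMT2C and 16.2, 18.8 and 21.3 CPM in siNC. BCL3 was at 13.3, 11 and 10.1 CPM in siKMT2C and 9.55, 10.6 and 13.8 CPM in siNC. Both overlapped widely, with log2 fold changes of -0.09 (SE 0.17, edgeR adjusted p = 0.837) for PIM1 and 0.02 (SE 0.20, edgeR adjusted p = 0.975) for BCL3. Their 95% intervals, 71.2% to 123.2% and 73.4% to 140.4% of siNC, leave room for changes in either direction. The sign of BCL3 turned when libraries were scaled by size alone (-0.01).

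**Figure D3:**
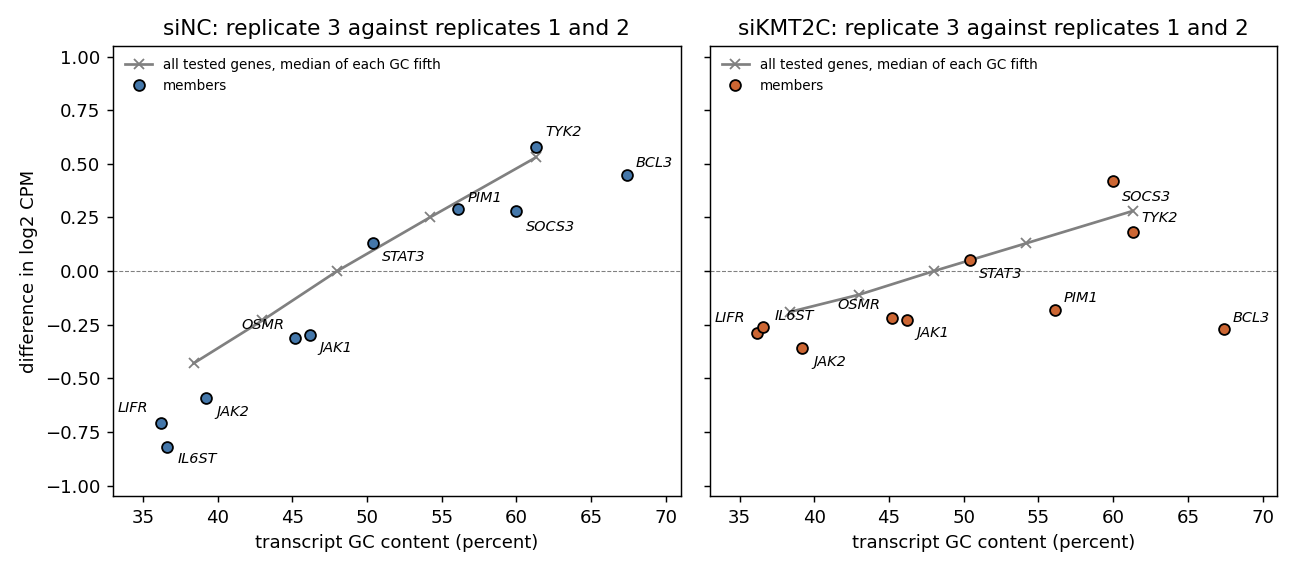
Difference in log2 CPM between replicate 3 and the mean of replicates 1 and 2, within siNC (left) and siKMT2C (right), against transcript GC content in percent, with the 10 genes as points and the medians of all tested genes, in 5 groups by GC content, as a grey line. In siNC the values run from -0.82 for IL6ST to 0.58 for TYK2, and in siKMT2C from -0.36 for JAK2 to 0.42 for SOCS3, with PIM1 and BCL3 below 0 where the medians of all genes are above it.

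The spread within siNC moved with the base composition of the transcripts. Over all tested genes, siNC replicate 3 was below the other siNC libraries by a median of -0.43 on the log2 scale in the 3005 genes with the lowest GC content, and above them by 0.53 in the 3005 with the highest. In siKMT2C the same medians for replicate 3 were -0.19 and 0.28. IL6ST, LIFR and JAK2 have GC contents of 36.6%, 36.2% and 39.2% (longest GENCODE 29 transcript), and their siNC replicate 3 lay at -0.82, -0.71 and -0.59. OSMR (45.2%) and JAK1 (46.2%) lay at -0.31 and -0.30. STAT3 (50.4%) was near level at 0.13, and TYK2 (61.3%), BCL3 (67.4%), PIM1 (56.1%) and SOCS3 (60.0%) were higher in that library, by 0.58, 0.45, 0.29 and 0.28. In siKMT2C replicate 3 lay at -0.26, -0.29 and -0.36 for IL6ST, LIFR and JAK2, at -0.22, -0.23 and 0.05 for OSMR, JAK1 and STAT3, and at 0.18 and 0.42 for TYK2 and SOCS3. PIM1 and BCL3 were lower in that library, at -0.18 and -0.27. After correction for GC content and length the log2 fold changes of OSMR and STAT3 were -0.41 (edgeR adjusted p = 0.0343) and 0.48, those of IL6ST, LIFR and JAK2 were -0.33, -0.20 and -0.34 with adjusted p of 0.108, 0.309 and 0.126, and TYK2 was at 0.05.

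**Figure D4:**
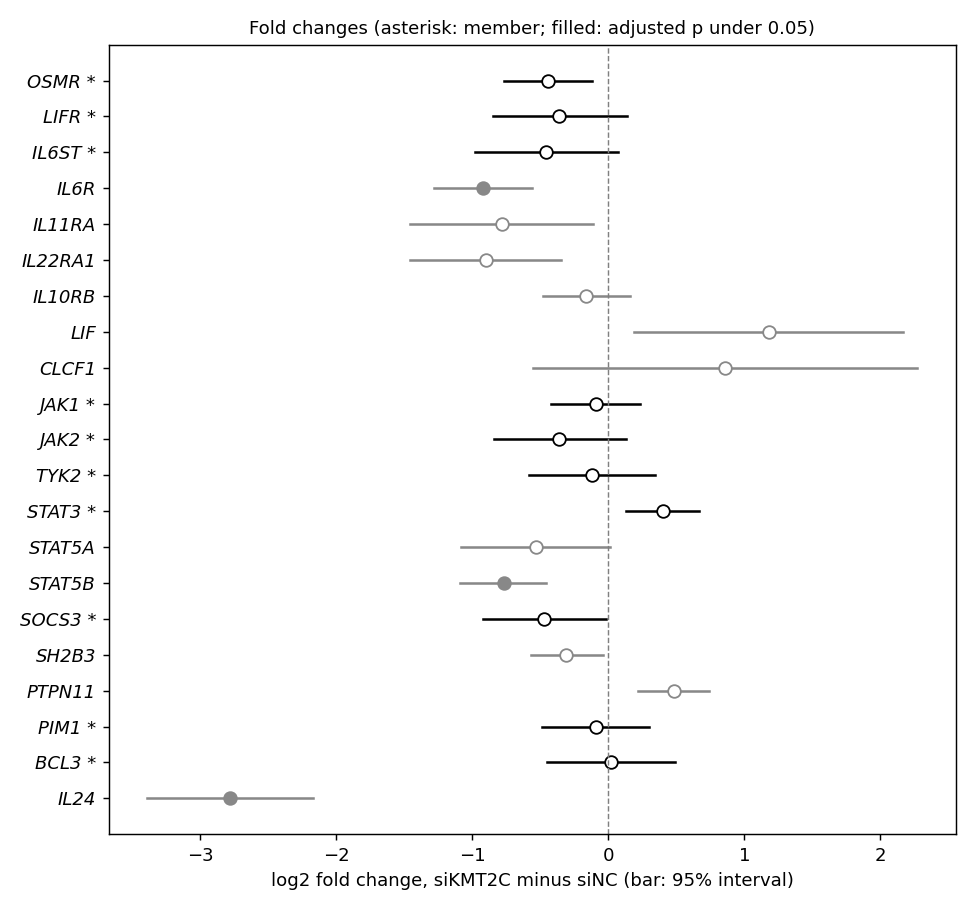
Log2 fold change (siKMT2C minus siNC) with its unadjusted 95% interval for the 10 genes (black, asterisk) and for further pathway genes (grey), with filled points for genes called by edgeR. IL6R, STAT5B and IL24 are filled, and none of the 10.

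Other receptors of the gp130 family included a called gene. Their list and those that follow were chosen with earlier results of these data known, so shares within them are descriptions only. Of 6 listed, 5 were tested and 1 was called, beside 1.50% of all genes. The groups did not overlap in 3 of the 5 (1 higher and 2 lower), beside 24.1%. The called gene was IL6R, the chain that binds IL-6 and hands it to gp130, which fell. It was at 30.5, 26.5 and 22.1 CPM in siKMT2C and 50.4, 52.3 and 47.1 CPM in siNC, with no overlap. The log2 fold change was -0.92 (SE 0.16, edgeR adjusted p = 0.0347), or 52.8% of siNC (95% interval 41.2% to 67.7%). The call was kept without siNC replicate 3 and lost without any single one of the other 5 libraries, with adjusted p from 0.0955 to 0.158. IL6R does not hold GTATAAA. IL11RA, the receptor chain for IL-11, was low at 2.54 ± 0.492 against 4.39 ± 1.26 CPM (-0.78, SE 0.29, edgeR adjusted p = 0.228). Its exons overlap those of GALT on the same strand, which leaves its level uncertain. CNTFR had no counts.

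Of 9 listed ligands of the family 5 were tested. IL11 was the most abundant of them, at 7.92 ± 2.75 CPM in siKMT2C and 10.0 ± 3.90 CPM in siNC (-0.34, SE 0.34, edgeR adjusted p = 0.676). OSM, IL27 and IL31 had no counts in any library and IL6 had 35 counts in all 6 libraries. None of the 5 was called in edgeR, DESeq2 or limma-voom, and 1 had an unadjusted p under 0.05, beside 16.9% of all genes. That was LIF, at 2.69, 1.86 and 1.78 CPM in siKMT2C and 0.629, 1.59 and 0.619 CPM in siNC (1.18, SE 0.43, edgeR adjusted p = 0.217). CLCF1, with 70 counts in all, was at 0.933 ± 0.621 against 0.522 ± 0.279 CPM (0.86, SE 0.61, edgeR adjusted p = 0.535), and without siKMT2C replicate 3 its value was 0.22.

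IL-22, another M5 cytokine, also signals through STAT3, by a receptor of IL22RA1 and IL10RB. IL22RA1 was at 5.87, 3.53 and 6.33 CPM in siKMT2C and 9.04, 10.0 and 10.4 CPM in siNC (-0.90, SE 0.24, edgeR adjusted p = 0.114), and IL10RB was at 27.5 ± 1.04 against 30.8 ± 3.31 CPM (-0.16, SE 0.14, edgeR adjusted p = 0.621). The level of IL10RB is uncertain, since 38.1% of its exonic bases are shared with AP000295.1 on the same strand. IL22RA1 was called in 3 of 16 alternatives (DESeq2, the replicate block, and correction for GC content and length), and in none that left out a library.

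Of 7 other JAKs and STATs, all were tested and 1 was called, beside 1.50% of all genes. The groups did not overlap in 2 of the 7, both lower, beside 24.1%. The called gene was STAT5B, which fell. STAT5B transduces growth hormone, prolactin and several interleukins. It was at 23.9, 24.9 and 26.8 CPM in siKMT2C and 44.4, 38.8 and 46.1 CPM in siNC, with no overlap and narrow groups. The log2 fold change was -0.77 (SE 0.14, edgeR adjusted p = 0.0391), or 58.5% of siNC (95% interval 47.1% to 72.7%). The call was kept without siNC replicate 3 and lost without any other single library (adjusted p from 0.101 to 0.220). Its neighbour and paralog STAT5A was at 3.01 ± 0.436 against 4.35 ± 0.821 CPM (-0.53, SE 0.24, edgeR adjusted p = 0.304), and reads that the paralogs share may have been split between them. STAT5B holds GTATAAA in the window printed above. STAT3 and STAT5B lie in the same stretch of chromosome 17 and had values of opposite sign.

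None of the 17 tested negative regulators of JAK-STAT signalling was called by edgeR, while 3 had an unadjusted p under 0.05, beside 16.9% of all genes. DESeq2 called 1, beside 5.28% of all genes, and limma-voom 0. Of the 17, 12 had negative values, and the median was -0.19. The smallest p was that of PTPN11 (SHP2), a phosphatase that binds gp130 and passes the signal to the MAP kinases as well as damping STAT3. PTPN11 was at 397.2, 386.7 and 377.9 CPM in siKMT2C and 303.9, 263.6 and 266.3 CPM in siNC, with no overlap (0.48, SE 0.11, edgeR adjusted p = 0.0848). It was called under 4 of 16 alternatives: DESeq2 (adjusted p = 0.0307), the replicate block, and GC and length correction with and without the block. No alternative that left out a library called PTPN11. Its exons share 111 bases with the very abundant RPL6 on the opposite strand. SH2B3, an adaptor that restrains JAK2, was at 72.0 ± 1.66 against 89.0 ± 2.78 CPM (-0.31, SE 0.11, edgeR adjusted p = 0.228).

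Further genes known as targets of STAT3 or oncostatin M had values in both directions. Of 40 listed, 35 were tested, 19 with positive and 16 with negative values and a median of 0.09. Of the 35, 2 were called by edgeR, beside 1.50% of all genes, and IL24 fell. DESeq2 called 10 of them, beside 5.28% of all genes, and limma-voom 2. An unadjusted p under 0.05 was found for 14 of the 35 (8 with positive and 6 with negative values), beside 16.9% of all genes, and the groups did not overlap in 15 (7 higher and 8 lower), beside 24.1%. The list was chosen with earlier results of these data known, so its shares are a description and no independent support. IL24, a cytokine of the IL-20 group, was at 2.14, 2.70 and 3.13 CPM in siKMT2C and 20.6, 21.4 and 13 CPM in siNC (-2.78, SE 0.26, edgeR adjusted p = 0.0065), and was called under all 16 alternatives. The list also held the antimicrobial alarmin S100A7, with no counts, and S100A8, with 42 counts in all. S100A9 had 172 counts in all (0.27, SE 0.81, edgeR adjusted p = 0.908). LCN2 had 272, higher in siKMT2C with no overlap but not called (1.36, SE 0.29, edgeR adjusted p = 0.0655).

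**Figure D5:**
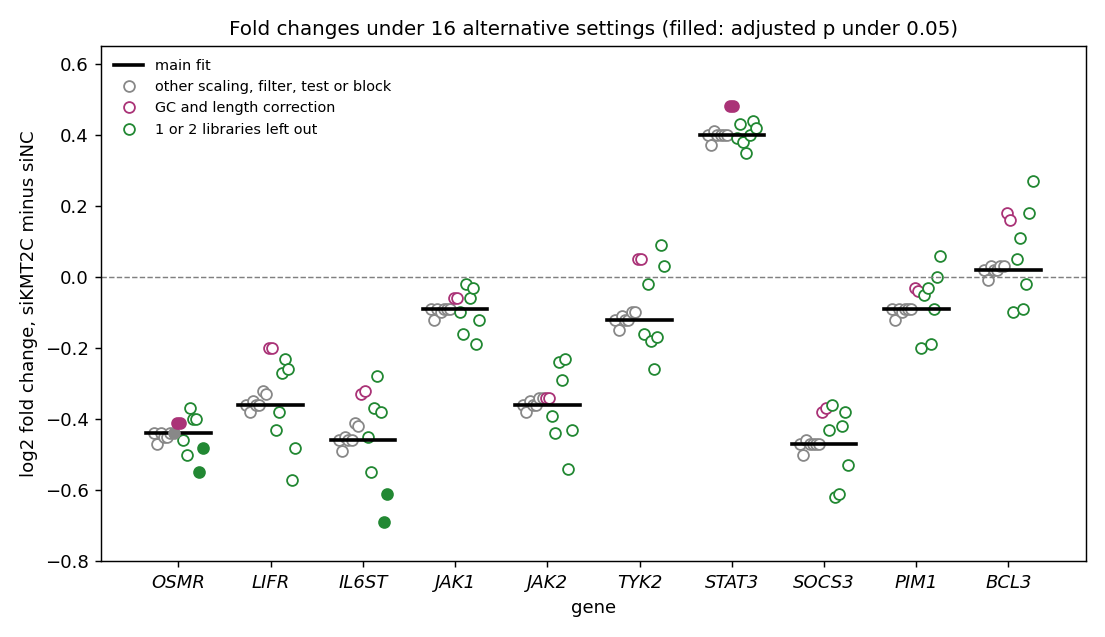
Log2 fold change of the 10 genes in the reported fit (black line) and under 16 alternatives (points, filled where called), with points in purple for GC and length correction and in green where libraries were left out. OSMR, IL6ST and STAT3 have filled points, and the values of TYK2, PIM1 and BCL3 cross 0.

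The plot of fold changes by setting shows which of the 10 values depended on the analysis. OSMR, LIFR, IL6ST, JAK1, JAK2 and SOCS3 were negative and STAT3 was positive under each of the 16 alternatives. TYK2 kept its sign in 12 of 16, PIM1 in 14 and BCL3 in 12. OSMR was called under 5 of the 16, and IL6ST and STAT3 under 2 each. The settings that called them called 4.04% to 9.17% of all genes, beside 1.50% in the reported fit. None of the other 7 genes was called under any of them.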

How the data were processed

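Expression was measured by RNA sequencing in 6 Ker-CT libraries. The authors deposited whole-number read counts and FPKM per gene, per the file headers. CASAVA 1.8, TopHat2 2.0.6 and the mouse build mm10 are named in the submitters' processing notes, although the identifiers are human. The counting program, annotation, strand use and human build are not given in the sources used here. Deposited FPKM were the counts rescaled by a constant per gene and per library (10244 genes, largest relative deviation 5.3e-06). The gene lengths behind FPKM did not follow the longest GENCODE 29 transcripts for OSMR and IL6ST. Symbols and coordinates come from GENCODE 29 on GRCh38, which held 99.55% of identifiers.

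Counts were tested with edgeR 4.0.16 in R 4.3.3 (filterByExpr, TMM, robust quasi-likelihood F test) on all 15063 genes, with Benjamini-Hochberg adjustment and calls under 0.05. The step was tested on simulated data, where it recovered 10.8% of 1.5-fold, 47.8% of 2-fold and 88.9% of 4-fold changes. It made 8 false calls among 14844 genes. Intervals use the fit's own degrees of freedom. GC and length were corrected by loess per library (span 0.3). The 10 genes, the 82 listed pathway genes and the alternatives were chosen with earlier results of these data known. Further named genes are the 2 smallest p of each list and every called member; 1 gene that this rule takes is not reported here. S100A7, S100A8, S100A9, LCN2, OSM, IL6, IL27, IL31, IL11 and CNTFR and the markers were named after their values were seen. GTATAAA comes from an earlier analysis of these libraries.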

Additional observations from a re-analysis of the deposited data

How the results depend on the processing

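The number of called genes, 226, was 791 with DESeq2 1.42.0, 1368 after GC and length correction, 648 without the replicate-3 libraries of both groups and 16 to 620 when single libraries were left out. With other scalings, filters or limma-voom 3.58.1 it stayed within 1.5 times. Called members numbered 0 in the reported fit, beside 1.50% of all genes, and 2 after GC and length correction (OSMR, STAT3), beside 9.11%. They numbered 2 without the replicate-3 libraries of both groups (OSMR, IL6ST), beside 4.29%. Over single libraries left out they numbered 0 to 2, with 2 without siNC replicate 3, beside 4.04%. The KMT2C value lay between -1.51 and -1.36 when a library was left out, and its call was lost at -1.48, -1.45 and -1.42. The OSMR to LIFR difference ran from -0.19 to 0.02 and that of OSMR to IL6ST from -0.15 to 0.14 over single libraries left out. Signs turned for TYK2 (0.05 after GC and length correction, from -0.26 to 0.09 over single libraries left out, 0.03 without both replicates 3), for PIM1 (0.00 without siNC replicate 3, from -0.20 to 0.00 over single libraries left out, and 0.06 without both replicates 3) and for BCL3 (-0.01 with library size alone, and from -0.10 to 0.18 over single libraries left out). None of these 3 was called anywhere, and the cause was not tested.

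Whether the replicate numbers pair the libraries could not be told, since the labels do not say so and each group has 3 libraries. Deviations from the group mean correlated at 0.02, 0.11 and 0.39 between same-numbered libraries. Between differently numbered ones they ran from -0.36 to 0.32, the highest for siKMT2C replicate 2 with siNC replicate 1. With the replicate block 968 genes were called (6.43%) and 1 member, OSMR (-0.44, edgeR adjusted p = 0.0492). With the block and GC and length correction 1378 were called (9.17%), 2 members among them, and TYK2 was at 0.05. BCL3, with 1119 counts in all, is the least covered member.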

Other observations

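Over the 6 libraries, the log2 CPM of OSMR ran most like those of GINM1 (Pearson r = 0.9982), RGPD5 (0.9969) and N4BP2 (0.9967), out of 12802 genes compared. Those 3 had log2 fold changes of -0.63, -0.61 and -0.99 and none was called, and RGPD5 belongs to a family of near-identical copies whose reads may be split. The genes most like STAT3 were SRXN1 (0.9962), ZNF229 (0.9962) and MTCH2 (0.9956), of which ZNF229 was called (0.88, edgeR adjusted p = 0.0491). These are descriptions over 6 libraries that share group, depth and base composition effects: 588 genes reached 0.9 or more with OSMR and 441 with STAT3. Within the pathway OSMR ran with JAK2 (0.91), IL6ST (0.88) and LIFR (0.85) and against STAT3 (-0.94), and had little relation to PIM1 (0.07).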
